A study of Brassica oleracea with 7 samples.

Results

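Brassica oleracea, the species of cabbage and kale, has leaves, stems and young seed pods (siliques) that are green and carry chloroplasts, whereas roots grow without light and hold few green cells. The 35 genes described here, of 39481 in the deposited table, had transcripts that were abundant in all 3 green organs and low in both root and callus. They were chosen by measured values, so their contrast with root and callus is a description and not a finding. The choice used FPKM, fragments scaled by gene length and by library size, with 1 added to each value. A gene was taken where its leaf FPKM was 100 or more, where its lowest value among leaf, stem and silique was at least 4 times its highest value among root and callus, and where leaf was under 4 times the highest of the other 6 tissues. The last condition removes genes that peak strongly in leaf. All ratios and log2 differences below are of FPKM + 1.

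The study sequenced poly(A)+ RNA of 7 tissues, with 1 library for each. Plants 7 weeks old gave the leaf, stem and root samples, flowers had opened on the same day, flower buds were 0.8 cm long, and siliques were taken 15 days after pollination. These organs came from greenhouse plants at 15 to 25 °C in sunlight, while callus, a mass of undifferentiated dividing cells, was grown in tissue culture at 25 °C in a lit cabinet. The labels give no genotype or number of plants for any tissue. With 1 library per tissue no difference has a replicate check and no test was made, so every comparison is between these libraries. In whole organs, fewer cells of a type and less RNA per cell cannot be told apart.

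Many genes that are shared by green organs are known to serve photosynthesis: they encode the proteins that capture light, those that fix carbon dioxide, and those that recover the carbon lost in photorespiration. Most of these proteins are made from nuclear genes and imported into the chloroplast, and in Arabidopsis their genes are switched on together by light. Which of the present genes belong to these pathways is not known here, because the table gives IDs alone. A lookup in the RefSeq gene table of the species matched 0 of them, so no name, role or sequence is given for any member, and the tissue labels were not checked against named marker genes.

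The implied number of fragments in gene models was between 8459141 (flower) and 10598033 (root) per library, and was 10595077 in leaf. No member was listed at 0 in any tissue. The median member rested on 3286 fragments in stem, 3079 in leaf, 2266 in silique, 1194 in bud and 594 in flower, but only 155 in callus and 70 in root. Of the 245 member values, 9 rested on 3 fragments or fewer, and 8 of these were root values.

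Abundance in leaf rarely came with this pattern. Of 947 genes with a leaf FPKM of 100 or more, 178 had leaf at least 4-fold above both root and callus. Stem was also 4-fold above in 70 of these, and in 38 of the 70 silique was too. Only 3 of the 38 peaked 4-fold or more in leaf, which left 35. The gap used by the rule was met by 4.01% of the genes with a leaf FPKM of 100 or more and by 0.343% of the 30945 genes that reached 1 FPKM in any tissue. Callus was the tissue that most often broke the pattern: 151 of the 947 genes had all 3 green organs 4-fold above root but not above callus, and 28 had them above callus but not above root. Among the 10 most abundant leaf genes 1 was a member, and among the 100 most abundant 11 were.

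**Figure D1:**
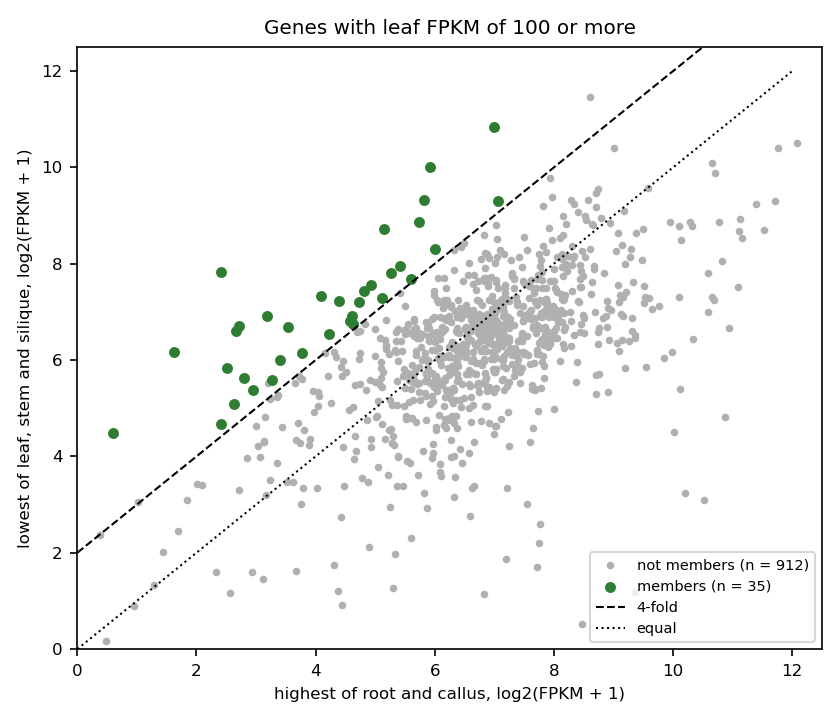
Each point is 1 of the 947 genes with a leaf FPKM of 100 or more, with the highest of root and callus on the horizontal axis and the lowest of leaf, stem and silique on the vertical axis, both as log2(FPKM + 1). The 35 members lie above the dashed 4-fold line, which chose them, while most of the other 912 genes lie near or below the dotted line of equality.

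The values near the limits show that the edges of the group are not natural breaks. Just inside the leaf limit were Bol006518 (Scaffold000277, 51564 to 52139) at 103 FPKM and Bol032269 (Scaffold000049, 796410 to 798282) at 104 FPKM. Just outside it were Bol007662 at 99.9 FPKM and Bol042855 at 96.8 FPKM. On the gap to root and callus, Bol036337 (Scaffold000029, 471577 to 473437) had a ratio of 4.25 and Bol032828 (Scaffold000046, 253715 to 254478) of 4.32, against 3.98 for Bol023415 and 3.95 for Bol030186, which missed it. The deposited intervals of FPKM kept the 4-fold gap in 27 of the 35 members when the lower bounds of the green organs were set against the upper bounds of root and callus.

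The third limit kept out the most abundant leaf gene of all. Bol017820 (Scaffold000143, 929116 to 929873) was at 16016 FPKM in leaf, 3998 in bud, 3451 in silique, 2821 in stem and 1364 in flower, but at 388 in callus and 44.9 in root, so it met the gap with a ratio of 7.25. Its leaf value was 4.01 times that of bud, just past the limit of 4. The other genes kept out in this way were Bol008355, at 6.54 times, and Bol008093, at 8.36 times. Just inside were Bol029584 (Scaffold000065, 1300904 to 1301355) at 3.21 times and Bol003517 (Scaffold000348, 304743 to 306846) at 2.88 times.

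As a group, the members took similar shares of the 3 green libraries and smaller but appreciable shares of bud and flower. They held 2.33% of the summed FPKM in leaf, 2.47% in stem and 2.54% in silique. The share was 1.55% in bud and 1.52% in flower, which the rule left nearly free, and 0.156% in callus and 0.0639% in root. These sums lean on a few abundant members, most of all in flower. There the members summed to 8796 FPKM, of which Bol021902 gave 2765 and Bol018846 gave 1589. In leaf they summed to 14296 FPKM, with Bol021902 at 1820 and Bol013040 at 1210 as the highest. The median member was at 238 FPKM in stem, 198 in leaf, 189 in silique, 115 in bud and 63.7 in flower, against 14.1 in callus and 4.37 in root. The other 912 genes of high leaf level had medians of 169 FPKM in leaf, 138 in bud, 107 in silique, 99.6 in stem, 98.8 in callus, 60.9 in root and 56.4 in flower. The medians of members and other genes in bud and flower were thus closer to each other than those in root and callus, where the rule acts.

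**Figure D2:**
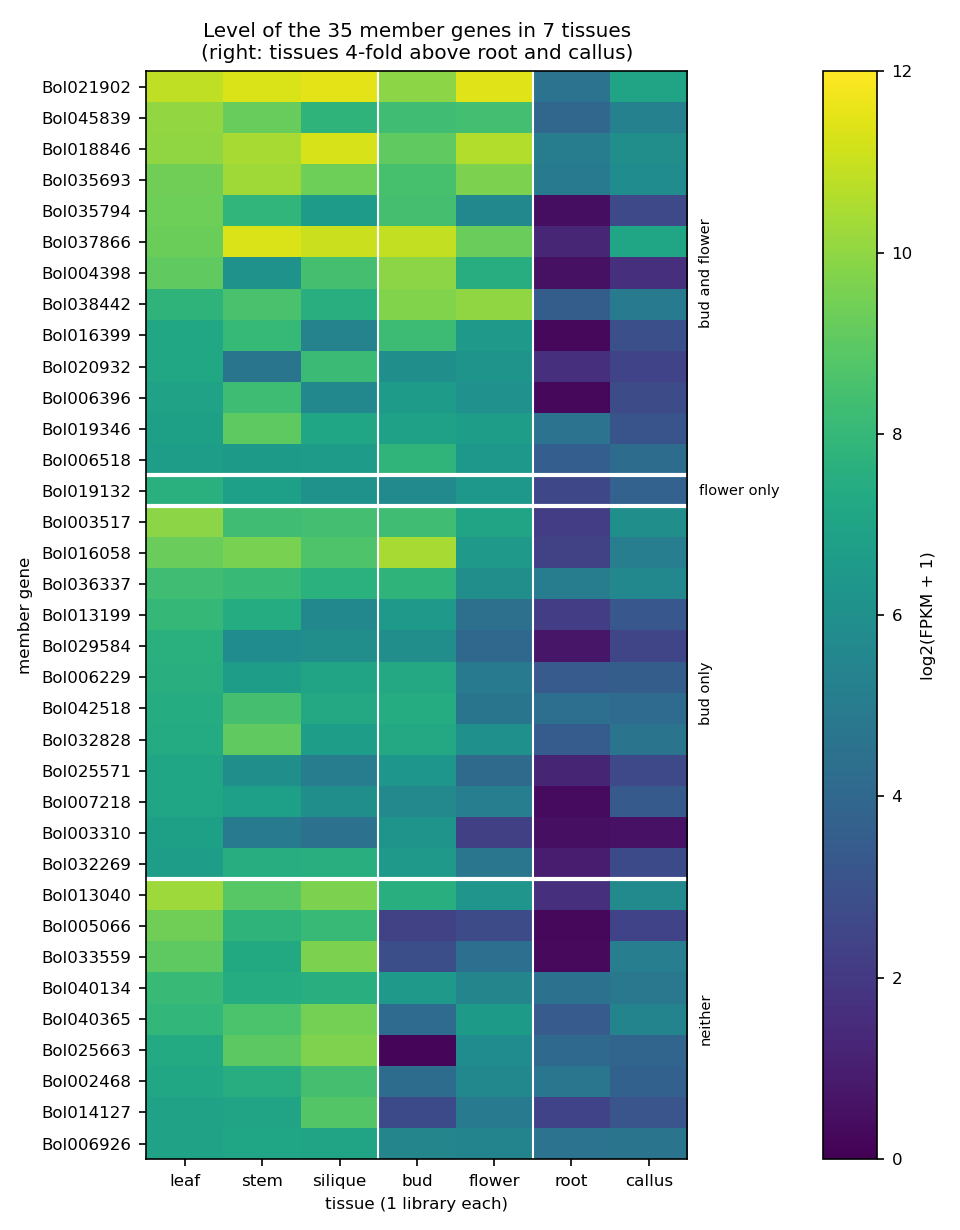
The level of each of the 35 members (rows) in the 7 tissues (columns, 1 library each) is shown as log2(FPKM + 1), in blocks by whether bud, open flower, both or neither was 4-fold above root and callus. Leaf, stem and silique are high and root and callus low throughout, as the rule requires, while bud and flower range from the highest to among the lowest tissues of a gene.

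Leaf was not always the organ where a member was highest. It was for 14 members, silique for 9, stem for 7, bud for 4 and open flower for 1. In that order the shares of the members were 40.0%, 25.7%, 20.0%, 11.4% and 2.86%. Over the other 912 genes of high leaf level they were 47.3%, 7.02%, 10.3%, 17.4% and 5.70%. Over all detected genes they were 19.2%, 11.7%, 7.29%, 14.4% and 11.6%. Stem was above leaf in 17 of 35 members (48.6%) and silique in 12 (34.3%). Over the other 912 genes these shares were 23.2% and 22.5%. Differences of 2-fold or more went both ways. Stem was that much above leaf in 6 members (17.1%) and below it in 10 (28.6%). Silique was that much above leaf in 7 (20.0%) and below it in 12 (34.3%). Over the other 912 genes these shares were 9.54% and 46.9% for stem and 6.58% and 42.0% for silique. Over all detected genes they were 13.9% and 21.5% for stem and 15.9% and 13.9% for silique. The median log2 difference was -0.16 for stem over leaf and -0.53 for silique over leaf. The rule sets bounds on all 3 organs, so these counts are set beside those of other genes without a test. They also move with the scaling of the columns, since trimmed mean rescaling of the same 35 genes put 12 highest in leaf, 11 in stem and 7 in silique.

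The most abundant member stood high in every organ above ground. Bol021902 (Scaffold000112, 1166553 to 1167007) was at 1820.1 FPKM in leaf, 2867 in silique, 2765 in flower, 2566 in stem and 974 in bud, with 127 in callus and 22.9 in root. Its silique and flower values had deposited intervals of 2814 to 2920.3 and 2713 to 2817, which overlap narrowly. Its coding length was 294 bases, among the shortest of the group. Bol018846 (Scaffold000136, 1191657 to 1193553) had the same order of tissues, with 2500.2 FPKM in silique, 1589 in flower, 1369 in stem, 1030.0 in leaf, 534 in bud, 59.5 in callus and 31.7 in root. In both genes bud was the lowest of the 5 organs above ground.

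Other abundant members leaned to leaf or stem. Bol013040 (Scaffold000191, 899535 to 901234) was at 1209.6 FPKM in leaf, 793 in silique, 464 in stem, 181 in bud and 76.3 in flower, then 52.3 in callus and 2.21 in root. Bol037866 (Scaffold000023_P2, 1438739 to 1439708) was at 2561 FPKM in stem, 2102 in silique, 1881 in bud, 627 in leaf and 620.4 in flower, then 132 in callus and 1.45 in root. Leaf and flower did not differ beyond their deposited intervals in Bol037866, and its callus value was the highest of all members. Bol019346 (Scaffold000132, 1228896 to 1230265) had the largest excess of stem over leaf, at 515 against 111 FPKM, a log2 difference of 2.20 (2.05 to 2.36 from the interval bounds). It was at 137 FPKM in silique, 115 in bud, 101 in flower, 22.8 in root and 7.74 in callus, so root was above callus there.

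The smallest stem values relative to leaf belonged to Bol004398 and Bol020932. Bol004398 (Scaffold000325, 383361 to 385595) was at 974 FPKM in bud, 540.2 in leaf, 349.6 in silique, 177 in flower, 71.0 in stem, 2.06 in callus and 0.468 in root, where 3 fragments were implied. Its 95% exact Poisson interval in root, which covers counting error only, was 0.0966 to 1.37 FPKM. Bol020932 (Scaffold000118_P1, 99011 to 100460) was at 291 FPKM in silique, 144 in leaf, 73.5 in flower, 61.6 in bud, 24.5 in stem, 4.29 in callus and 2.06 in root. Stem was the lowest of the organs above ground in both genes, and silique was 2.28 and 3.51 above stem on the log2 scale.

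The smallest silique values relative to leaf were those of Bol035794 and Bol013199. Bol035794 (Scaffold000032, 1639966 to 1640730) was at 651 FPKM in leaf, 355 in bud, 238 in stem, 96.3 in silique, 47.1 in flower, 5.31 in callus and 0.371 in root, again on 3 fragments (95% exact Poisson interval 0.0765 to 1.08 FPKM). Bol013199 (Scaffold000189, 416413 to 417915) was at 250.0 FPKM in leaf, 172 in stem, 89.9 in bud, 46.8 in silique, 20.8 in flower, 8.65 in callus and 3.47 in root. Silique lay 2.75 and 2.39 below leaf on the log2 scale, and bud was above silique in both.

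The widest gap to root and callus was in a gene that was low in all 4 tissues other than the green organs. Bol005066 (Scaffold000308, 13736 to 15579) was at 683 FPKM in leaf, 274 in silique and 225 in stem. It was at 5.74 FPKM in flower, 4.31 in callus, 4.04 in bud and 0.183 in root, the last on 3 fragments (95% exact Poisson interval 0.0378 to 0.535 FPKM). The deposited intervals of bud (3.04 to 5.03), flower (4.56 to 6.92) and callus (3.23 to 5.38) overlapped one another. Its lowest green value was 42.6 times the highest of root and callus, the largest ratio of all 30945 genes detected, and Bol004398 followed among the members with 23.5. The median ratio of the members was 6.10.

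**Figure D3:**
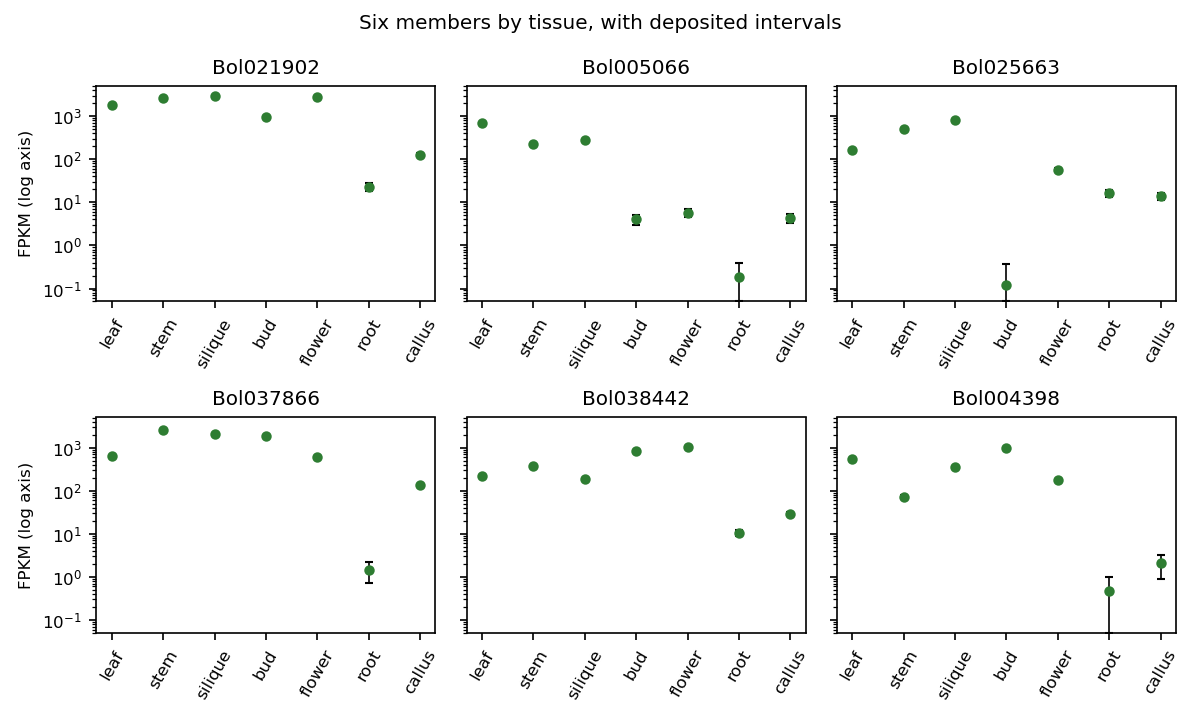
FPKM on a log axis in the 7 tissues for 6 members picked from the named genes to show how differently bud and flower behave, with the deposited intervals as bars, cut at the lower edge of the axis where they reach 0. Bol021902, Bol037866 and Bol038442 are high in bud and flower, Bol005066 is near its callus level in both, Bol025663 is at 0.123 FPKM in bud, and Bol004398 peaks in bud.

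Bud and open flower were the tissues that the rule left nearly free, and most members were high in bud while fewer were high in flower. Bud was at least 4-fold above both root and callus in 25 of 35 members (71.4%), and flower in 14 (40.0%). Over all detected genes these shares were 6.56% for bud and 4.53% for flower, and over the genes with a leaf FPKM of 100 or more they were 11.6% and 4.33%. Since the members had to be low in root and callus, a closer comparison is with the 143 genes that are not members and had leaf at least 4-fold above root and callus with a leaf FPKM of 100 or more. Bud was 4-fold above in 44.8% of those, and flower in 8.39%. These 143 genes are low in root and callus relative to leaf by the same limit but missed it in stem or silique, or peaked in leaf. Their medians were 10.5 FPKM in root and 21.4 in callus, against 4.37 and 14.1 in the members. The same 4-fold gap thus tended to ask for higher bud and flower values in them. The gap to root and callus shares its libraries with the rule, so the shares are set side by side without a test.

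In 13 members both bud and flower were 4-fold above root and callus, in 12 only bud was, in 1 only flower was, and in 9 neither was. In that order the shares were 37.1%, 34.3%, 2.86% and 25.7%. Over the 143 comparison genes they were 8.39%, 36.4%, 0% and 55.2%, and over all detected genes 2.52%, 4.04%, 2.01% and 91.4%. The share with bud alone was thus close to that of the comparison genes. The highest bud levels were those of Bol037866 and Bol016058 (Scaffold000158, 479969 to 481654), the latter at 1379 FPKM in bud, 776 in stem, 604 in leaf, 419 in silique, 88.4 in flower, 34.4 in callus and 4.08 in root. Bol016058 was in the group with bud alone, and its flower value was 3.95 below bud on the log2 scale. Bol038442 (Scaffold000021, 1968217 to 1969480) was the member that was highest in open flower, at 1045 FPKM, with 842 in bud, 371 in stem, 224 in leaf, 189 in silique, 29.5 in callus and 10.6 in root. It had the largest excess over leaf in flower (2.22 on the log2 scale) and in bud (1.90).

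**Figure D4:**
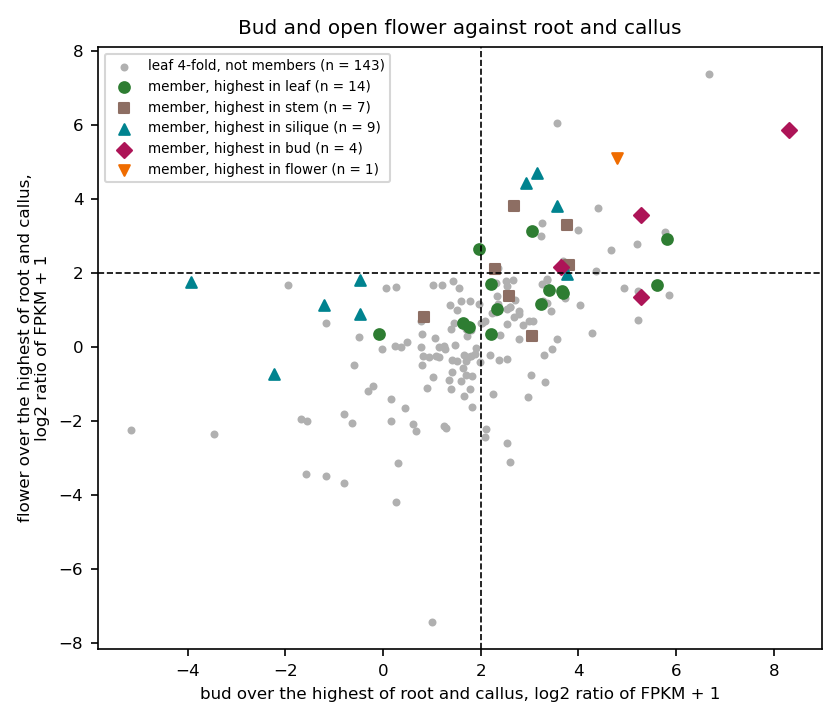
The log2 ratio of bud (horizontal axis) and of open flower (vertical axis) to the highest of root and callus, each on FPKM + 1, is shown for the 35 members by the tissue where they are highest and for the 143 other genes with leaf 4-fold above root and callus. Of the members, 25 lie right of the vertical 4-fold line and 14 above the horizontal one, and members highest in silique lie both far left and high up.

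At the other end, bud was at or below the highest of root and callus in 6 members (17.1%), and flower was in 1 (2.86%). Over all detected genes these shares were 61.0% for bud and 70.1% for flower. Over the 143 comparison genes they were 11.2% and 45.5%. Members highest in silique made up 5 of the 6 with bud this low. Of the 9 members highest in silique 5 had such a bud value, whereas 1 of 14 members highest in leaf and 0 of 7 highest in stem did. Among other genes of high leaf level that peaked in silique, 21 of 64 (32.8%) had bud at or below root and callus. The counts were 152 of 431 (35.3%) for those that peaked in leaf and 20 of 94 (21.3%) for stem. Outside the members, genes that peaked in silique and in leaf were thus alike in this. Bol033559 (Scaffold000041, 250472 to 256783) was at 795 FPKM in silique, 523 in leaf and 156 in stem, but at 33.7 in callus, 19.7 in flower, 6.34 in bud and 0.221 in root (3 fragments, 95% exact Poisson interval 0.0455 to 0.645 FPKM). It was the member in which both bud and flower lay below callus. Bol014127 (Scaffold000178, 536825 to 540204) was at 438 FPKM in silique, 126 in stem, 120.0 in leaf, 31.0 in flower, 8.05 in callus, 5.50 in bud and 4.37 in root.

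The lowest bud value of the group was 1 fragment. Bol025663 (Scaffold000086, 643380 to 643973) was at 829 FPKM in silique, 509 in stem, 161 in leaf, 56.5 in flower, 16.1 in root, 14.1 in callus and 0.123 in bud, with a 95% exact Poisson interval of 0.00312 to 0.687 FPKM in bud. It was also the one member with no intron in its gene model. Among the 786 intronless genes that reached 1 FPKM in any tissue, 0 reached 100 FPKM in bud and 0 in flower. The count was 1 in leaf (Bol025663 itself), 1 in stem, 11 in silique, 3 in root and 6 in callus. Over all genes, 1158 reached 100 FPKM in bud, 921 in flower, 947 in leaf and 1081 in stem. The number was 961 in silique, 847 in root and 1045 in callus. Such intronless genes were thus few in every tissue. Whether the lack of an intron had any part in the low bud value of Bol025663 was not tested.

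Between bud and open flower the members split by organ of highest level. Flower was above bud in 13 of 35 members (37.1%), and the median log2 difference of flower over bud was -1.01. The share was nearly the same over all detected genes (36.8%). It was 18.9% over the other genes of high leaf level and 10.5% over the 143 comparison genes. Of the 9 members highest in silique, 8 had flower above bud, with a median log2 difference of 1.5, and the exception was Bol032269. Of the other 26 members, 5 did. The median difference was -1.58 for members highest in leaf, 3 of 14 of which had flower above bud, and -0.49 for those highest in stem, with 1 of 7. Over genes of high leaf level that are not members, flower was above bud in 24 of 64 that peaked in silique and in 47 of 431 that peaked in leaf. The split was noticed in these values and was given no test. After rescaling the columns, 7 members were highest in silique and all 7 had flower above bud under each of the 3 rescalings. Each rescaling raised flower and lowered bud (log2 shifts of 0.22 and -0.12 for the trimmed mean). Flower above bud could therefore not be lost in any gene, so the rescalings do not check the split. Under each of them flower was above bud in 15 of all 35 members. Bud and flower were at least 4-fold apart in 11 members, flower being higher in 3 and bud in 8. Over the genes with a leaf FPKM of 100 or more, 32.5% were 4-fold apart in either direction, a pooled share close to that of the members. By direction, flower was 4-fold above bud in 8.57% of the members and bud above flower in 22.9%. Over the other genes of high leaf level these shares were 2.41% and 30.2%.

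Across the 35 members the level in bud was nearly unrelated to that in silique, with a Pearson correlation of 0.10 on log2(FPKM + 1) and a Spearman's rho of 0.17. Over the 143 comparison genes Spearman's rho of bud and silique was 0.49. Other pairs were more alike among the members, such as stem and flower (rho 0.64), bud and flower (rho 0.68) and leaf and silique (rho 0.56). In the 143 comparison genes these pairs had rho of 0.58, 0.59 and 0.49. Stem and callus had the highest rho of all pairs among the members, 0.72 against 0.39 in the comparison genes. For silique and callus (0.62 against 0.64) and leaf and callus (0.56 against 0.60) the values were close. Bud and root (rho 0.17) and leaf and root (rho 0.11) were also weakly related among the members, against 0.38 and 0.41 in the comparison genes. Genes are not independent replicates, and the points share the 7 libraries. The rule narrows the range of leaf, stem and silique and limits root and callus against them, so these values are descriptions.

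Root and callus were both low by choice, but callus was mostly the higher of them. Callus was above root in 31 of 35 members (88.6%), and the median log2 difference of callus over root was 1.17. Most genes leaned this way too. Callus was above root in 68.7% of all detected genes (median log2 difference 0.47) and in 75.5% of the 143 comparison genes (0.75). Callus was at least 4-fold above root in 11 members and root was 4-fold above callus in 0. Over all detected genes callus was 4-fold above root in 11.6% and root above callus in 2.42%, and over the 143 comparison genes in 28.0% and 4.20%. The share in the members (31.4%) was therefore close to that of other leaf genes low in root and callus. The order of callus and root moved with the scaling, in either direction. After trimmed mean rescaling callus was above root in 25 of the same 35 members, with 8 at 4-fold, root was 4-fold above in 1, and the median log2 difference was 0.55. Upper quartile rescaling also gave 25 and 8, with a median of 0.65. Rescaling to the fragments in gene models instead gave 31 and 12, with a median of 1.33. On the log2 scale the trimmed mean moved root by 0.39 and callus by -0.42.

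The largest excess of callus over root was in Bol037866, at 132 against 1.45 FPKM, a log2 difference of 5.76 (5.31 to 6.35 from the interval bounds), and in Bol033559, at 33.7 against 0.221 FPKM, a log2 difference of 4.83 (4.41 to 5.25). Root was above callus in 4 members. In Bol019346 it was at 22.8 FPKM (19.0 to 26.6) against 7.74 FPKM (5.43 to 10.1), and in Bol002468 (Scaffold000387, 55006 to 56112) at 25.5 FPKM (22.1 to 29.0) against 12.2 FPKM (9.70 to 14.7). In the other members with root above callus, Bol042518 and Bol025663, the deposited intervals overlapped. In all, the intervals of root and callus overlapped in 7 members (20.0%), against 39.4% of detected genes and 23.8% of the 143 comparison genes. Root was under 1 FPKM in 10 members and callus in 1. Root was at 10 FPKM or more in 15 members and callus in 21, so low did not mean absent. Root under 1 FPKM held for 28.6% of members, against 32.8% of detected genes and 16.8% of comparison genes. For callus under 1 FPKM these shares were 2.86%, 18.8% and 2.80%. For root at 10 FPKM or more they were 42.9%, 27.2% and 51.0%. Callus was at 10 FPKM or more in 38.9% of detected genes and 75.5% of comparison genes.

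**Figure D5:**
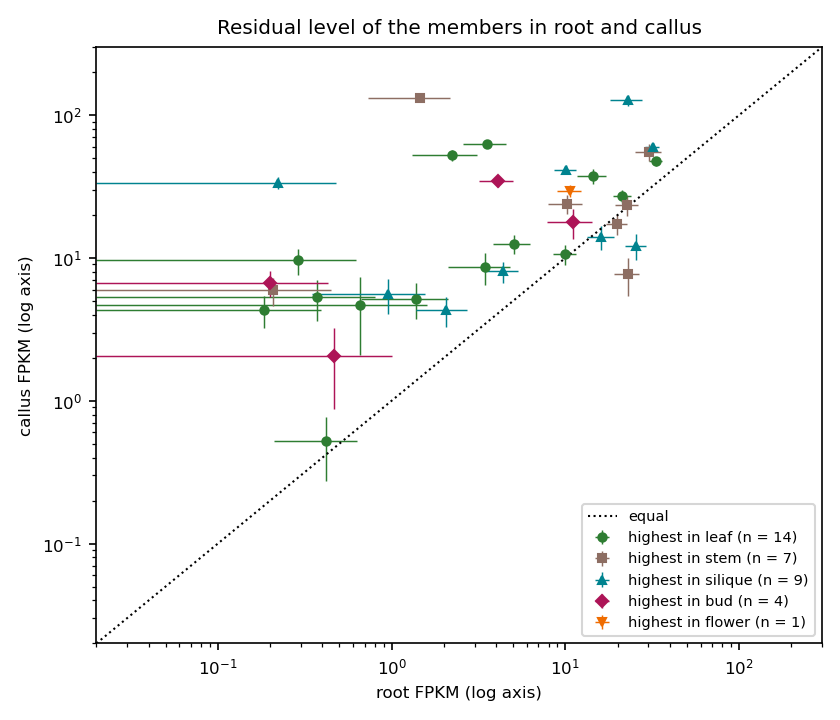
Root FPKM (horizontal axis) and callus FPKM (vertical axis), both on log axes, are shown for the 35 members by the tissue where they are highest, with deposited intervals as bars, cut at the edge of the axes where they reach 0. Of the points, 31 lie above the dotted line of equality on the deposited scaling, against 25 after trimmed mean or upper quartile rescaling and 31 after rescaling to fragments in gene models, and root values spread from 0.183 to 33.2 FPKM.

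Beyond expression, the table gives gene length and position. The median coding length of the members was 792 bases (range 222 to 2775), against 672 in the 900 other genes of high leaf level with a coding length and 1005 over detected genes. The median locus spanned 1508 bases, against 1359 and 1818. Of 35 members 1 was intronless (2.86%, 95% Wilson interval 0.506% to 14.5%), against 0 of 900 and 2.59% of detected genes. The members lay on 33 of the 699 scaffolds and 0 pairs were neighbours among the rows of the table. Scaffold000014 held Bol040134 and Bol040365, 2815 kb apart, and Scaffold000032 held Bol035693 and Bol035794, 1203 kb apart. The loci of Bol018846 and Bol033559 overlapped another gene, and since the labels name no step that marks strand, reads of the partners cannot be told apart there.

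Among the other genes with a leaf FPKM of 100 or more, those whose profile was most like the median of the members, by Pearson correlation of log2(FPKM + 1) over the 7 tissues, were Bol009931 (r = 0.96) and Bol025084 (r = 0.96). Bol009931 was at 127 FPKM in leaf, 105 in silique, 92.9 in stem, 84.6 in flower, 84.3 in bud, 46.8 in callus and 38.2 in root. Bol025084 was at 373 FPKM in stem, 251 in leaf, 228 in bud, 213 in flower, 199 in silique, 88.0 in callus and 32.1 in root. In both, root and callus were also the lowest tissues, but the gap was smaller, the lowest green values being 1.97 and 2.24 times the highest of root and callus.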

How the data were processed

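The deposited table gives FPKM for 39481 genes in 7 libraries, each value between a pair of bounds, per the file headers. The submitters' processing notes name TopHat 1.0.13. Genome build, annotation and the program behind the table: not given in the sources used here. Scaffold positions follow the table, its starts being shifted by 1 to count from 1. Per the labels' protocols, cDNA fragments of 200 ± 20 bp were sequenced as paired ends after 15 cycles of PCR.

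The distance from FPKM to its upper bound was read as 2 square roots of a count, which gave the implied fragments. This came out whole for 88.8% of the 215412 nonzero values, the tolerance being the larger of 0.02 and 3e-06 times the fragments raised to 1.5. Genes without introns then gave the divisor of each column and the coding length of 36453 genes, 99.8% of which lay within 0.25 bases of a multiple of 3. A gene was called intronless where that length was within 0.2% of its locus span. Intervals cover counting error only.

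Members were found on FPKM + 1, and a pseudocount of 1 understates folds of low values. A gene was detected at 1 FPKM in any tissue. The rule, lists and comparisons were chosen with earlier results of these data known. The named IDs come from a rule: the 2 members highest in each organ above ground, the 2 with the widest gap, the 2 at each end of each ratio to leaf and of callus to root, the 2 genes on each side of each limit and the 2 other abundant leaf genes most like the median profile. Others are named where a count is small. The 143 comparison genes, the intronless count and the split of flower against bud were added after values were seen. The gene lists set out by symbol had 0 members, since 0 IDs matched the 53125 genes of the reference table. The steps were tested on simulated counts. Alternatives were other pseudocounts, column scalings, limits, interval bounds and the rule with 1 tissue not required. Python 3.11.15, pandas 2.3.3, NumPy 2.4.6 and SciPy 1.17.1 were used.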

Additional observations from a re-analysis of the deposited data

How the results depend on the processing

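The pattern was recomputed under other limits, scalings and subsets of tissues, each of which changes who is a member. Among the recomputed counts, shares and lengths over the members, 72 kept close to the reported value (counts within 1.5 times) and 48 moved. Coding length was taken as close between 594 and 1089 bases. The share of summed FPKM was close only between 2.32% and 2.34%, a band of counting error alone. Counts that stayed at 0 were taken as close. The tally thus mixes unlike criteria and does not measure how firm the results are. Of 22 named members, callus over root changed sign in 2 under both the trimmed mean and the upper quartile (Bol006518 and Bol036337), and flower over bud in 1 (Bol019346). These differences were under 4-fold as reported. The 35 members became 123 with a 2-fold limit, 14 with an 8-fold limit, 94 at a leaf FPKM of 10 or more, 17 at 200 or more, 182 without callus in the rule, 62 without root and 65 without silique. Members with bud 4-fold above root and callus, 25 as reported, became 97, 8, 68 and 12 under the same fold and leaf limits, 69 without callus in the rule, 45 without silique, 39 without stem and 16 on interval bounds. Members with flower 4-fold above, 14 as reported, became 77, 4, 40 and 8 under the fold and leaf limits, 22 at a leaf FPKM of 50 or more, 28 without callus, 23 after trimmed mean rescaling and 22 after upper quartile rescaling. Under the 2- and 8-fold limits these counts use that limit too. Callus above root by the limit, 11 as reported, became 55 at 2-fold, 1 at 8-fold, 17 at a leaf FPKM of 10 or more, 125 without callus in the rule, 18 without stem and 7 on interval bounds. Root above callus, 0 as reported, became 10 at 2-fold and 10 without root. Adjacent pairs, 0 as reported, became 1 at 2-fold and 2 without callus. The share of summed leaf FPKM, 2.33% as reported, became 6.61% at 2-fold, 1.32% at 8-fold, 2.69%, 2.51% and 1.91% at a leaf FPKM of 10, 50 and 200 or more, 8.52% without callus, 4.01% without root, 3.66% without silique, 3.39% without stem, 2.03% on interval bounds, 2.5% and 2.37% with pseudocounts of 0.1 and 0.5, 2.99% after upper quartile rescaling, 5.57% after trimmed mean rescaling and 5.19% after rescaling to fragments in gene models. Under the last 2 scalings the most abundant leaf gene, Bol017820, became a member, and without it, a value added after the data were seen, the shares were 2.96% and 2.58%. With the 35 members held fixed, flower was 4-fold above root and callus in 19 after trimmed mean rescaling, so values moved as well as membership. Causes of the other moves were not tested. Without root in the rule, callus was above root in 31 of 62 members. Of the 35 members, 29 stayed after trimmed mean rescaling and 33 after upper quartile rescaling. The median coding length stayed between 726 and 993 bases. No paired analysis was possible because there is a single library per tissue and no test was run; for the same reason no library could be left out as a replicate. Root values limit precision most, with a median of 70 fragments per member.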

Other observations

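The same gap was also found below the leaf limit. Of 106 detected genes whose 3 green organs were at least 4-fold above root and callus, 68 were under 100 FPKM in leaf and did not peak 4-fold in leaf. Their leaf values ran from 4.19 to 99.9 FPKM with a median of 26.2, and their medians were 2.19 FPKM in callus and 0.552 in root. Bud was 4-fold above root and callus in 49 of them (72.1%) and open flower in 32 (47.1%), next to 71.4% and 40.0% in the 35 abundant genes. These genes were highest in silique in 19 cases, in leaf and in bud in 17 each, in stem in 11 and in flower in 4.

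Flower and bud were compared in these less abundant genes too. Of the 19 highest in silique, 8 had flower above bud, whereas 8 of the 9 abundant members highest in silique did. Callus was above root in 54 of the 68 and 4-fold above in 6, and 3 were listed at 0 in both root and callus.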
